A study of Caenorhabditis elegans with 8 samples.

Results

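Editing-enriched regions (EERs) are stretches in which the study found clusters of A-to-I edited sites, and some worm genes carry several of them. The genes described here are those whose span, introns included, overlaps at least 3 of the study's 1523 EERs on either strand. There are 79 such genes among the 25509 genes of the deposited table, against 145 genes that host 2 EERs and 655 that host 1. Of them 38 host 3 EERs, 19 host 4, 11 host 5, 5 host 6, 4 host 7, 1 hosts 8 and 1 hosts 9. Another 2 genes that meet the rule were left out by name and are not analysed here. The study found the EERs in the same libraries that are compared below, so the members were chosen by values measured on these samples. Their number of EERs is described and not tested, and the dsRIP signal of the EERs is no independent evidence.

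All samples came from whole worms of the wild-type strain Bristol N2, grown in liquid culture. The 4 stages were embryos of mixed ages, larvae of L1-L2, larvae of L3-L4, and young adults, and values along the stages are given in this order below. Larvae and adults came from eggs hatched without food at 20 °C, and young adults were taken after 50 to 54 h of culture. Each larval sample was a mixture by volume, with 5 parts of each of its 2 intermolt stages and 2 parts of animals at the molt between them. At each stage dsRIP RNA, which the J2 antibody against double-stranded RNA (dsRNA) pulled down, stood beside total RNA, which gives 4 dsRIP and 4 total RNA samples. The deposited table splits each sample into 3 numbered columns, and the labels do not say whether these are separate cultures or technical repeats. Every sample therefore counts as 1 replicate, and values are the mean ± SD of its 3 columns. The p-values, except in some alternatives at the end, measure only how the ratio of dsRIP over total RNA spread between the stages. That spread may be technical or a real difference between stages, and the 2 cannot be told apart here.

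Adenosine deaminases that act on RNA (ADARs) turn adenosine into inosine within base-paired RNA. Sequencing reads inosine as guanosine, so clusters of A-to-G changes mark RNA that was double-stranded in the cell. In *C. elegans* the catalytically active enzyme is ADR-2, which works with ADR-1, and long structures form where inverted repeats in introns or untranslated regions of a transcript fold back on themselves. Editing and the RNA interference machinery act on the same kind of substrate.

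The reads behind the values summed to 1211042 to 1751557 in the dsRIP samples and to 1992079 to 2264595 in the total RNA samples. Log2 levels of the tested genes correlated at 0.778 to 0.885 between columns of 1 sample, as a description across genes. Over all 8 samples the median host gene had 1216 reads and the median EER within the host genes 37. Marker levels moved with stage. The summed level of 8 germline markers in total RNA was 390 in embryos, 144 and 369 at the larval stages and 1343 in young adults, in FPKM (fragments per kilobase, scaled to library size). For 7 intestinal markers it was 308, 2423, 2967 and 4586 FPKM, for 6 body wall muscle markers 759, 2961, 3435 and 2545 FPKM, and for 8 neuronal markers 161, 803, 392 and 178 FPKM. It was 397, 230.5, 296 and 871 FPKM for 6 epidermal markers and 0.466, 3.80, 9.92 and 44.7 FPKM for 5 sperm markers. From embryos to young adults the germline marker mex-3 fell (115.8 to 60.4 FPKM), while the others rose, cgh-1 to 608 FPKM. From L1-L2 to L3-L4 larvae the muscle genes unc-54, unc-27 and pat-10 rose, while myo-3, unc-15 and mup-2 fell. All neuronal markers were highest in L1-L2 larvae. From embryos to young adults unc-25, egl-21 and egl-3 rose, while unc-17, rab-3, snb-1, ric-4 and unc-104 fell. The intestinal rise from L3-L4 larvae to young adults came from vit-2, vit-5 and vit-6 (1139, 800 and 1592 FPKM in young adults). Over the same step asp-1, act-5, elt-2 and ges-1 fell (asp-1 from 1867 to 628.5 FPKM). In young adults col-19 gave 818 FPKM of the epidermal sum. From embryos to young adults dpy-7, elt-3 and lin-26 fell (dpy-7 from 306 to 1.73 FPKM), while bli-1, rol-6 and col-19 rose. The epidermal collagen genes bli-1, rol-6 and col-19 and the sperm genes spe-11 and gsp-3 were listed at 0 in total RNA of embryos. In limma over all features 1 of the markers, the muscle gene pat-10, was higher in dsRIP (0.62 ± 0.08, adjusted p = 0.0314) and none was lower, and their part in the results below was not tested.

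The host genes lay at the chromosome ends. Of the 79, 78 had their midpoint in the outer 25% at either end of a chromosome (98.7%), against 93.8% of the genes with 2 EERs, 76.5% of those with 1 and 45.2% of all genes. The exception was hmr-1, on the right of chromosome I. Chromosome I held 32 of the host genes (40.5%, against 12.9% of all genes), chromosome III 18, IV 15, V 7, II 6 and X only 1. The whole list of 1523 EERs was uneven too, with 443, 322, 273, 244, 191 and 50 on these chromosomes in the same order. On the left of chromosome I, 26 of the host genes lay between positions 700277 and 3084878 in ce10. There were 13 pairs of neighbours that lay within 10 kb of each other, among them haf-6 and smg-2 at 0.605 kb, which encode an ABC transporter and the helicase of nonsense-mediated decay. The pair pqn-41 and R155.5 overlapped and shared 5 EERs, and rhgf-3 and Y105E8A.29 shared 3. Because of these 8 shared regions, the 320 gene and EER pairs amount to 312 EERs, 20.5% of the series' list.

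Host genes were long genes with much sequence outside their counted exons. Their median span was 15.5 kb (5.19 to 62.0 kb), against 8.63 kb for genes with 2 EERs, 5.36 kb for genes with 1 and 1.46 kb for genes with none. Longer spans hold more regions by the rule itself, so no test was made of this. Among protein-coding genes the counted length was 16.8% of the span at the median, against 23.1%, 33.2% and 60.8% in the same order. An annotation joined by sequence name matched 76 of the 79 and gave 75 protein-coding genes and 1 pseudogene, Y73B3A.18 on the X chromosome. The other three were Y95B8A.7, Y105E8A.29 and Y67D8A.1, for which strand and RNA class were not used.

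The EERs within host genes had a median length of 498 bp (52 to 3491 bp), against 393 bp for the 1211 other EERs. Together they covered a median of 2592 bp per gene, from 399 bp in lin-38 to 11227 bp in ssl-1, or 16.9% of the span (1.39 to 57.9%). The highest share belonged to pcyt-2.1, a gene of phosphatidylethanolamine synthesis, and the lowest to hmr-1, the E-cadherin gene. Where the strand of the gene was known, 277 of 307 gene and EER pairs lay on it (90.2%), against 89.4% of pairs in genes with 2 EERs and 92.1% in genes with 1. All EERs lay on the gene's strand in 56 of 76 genes, and 20 genes also held some on the opposite strand. EERs were spread along the spans. Their midpoints fell in the first of 3 equal parts of the span, counted from the gene's 5′ end, in 99 cases, in the middle part in 113 and in the last in 95. Whether an EER lies in an exon, an intron or an untranslated region was not determined, since no annotation of the files' build was used.

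Neighbouring EERs of 1 strand within a gene were never closer than 1002 bp, and the same minimum held over the whole list of EERs. The median gap was 2394 bp over 201 such pairs. Of 40 neighbouring pairs on opposite strands, 18 overlapped each other. The gene with most EERs was herc-1, which encodes a HECT-type ubiquitin ligase, at chromosome I, 1211493-1254700. Of its 9 EERs 6 lay on its own strand and 3 on the opposite one. Next came ssl-1, a SWI2/SNF2-like chromatin remodelling gene at chromosome III, 12714465-12743828, with 8 EERs that covered 38.2% of its span. The 4 genes with 7 EERs were npp-13 and npp-8, which encode nucleoporins of the inner pore ring, gcn-1, a regulator of translation under amino acid stress, and Y92H12A.5. Their EERs covered 30.3%, 22.1%, 4.22% and 17.2% of the span. In mca-3, the plasma membrane calcium pump gene, 6 EERs covered 25.3%.

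**Figure D1:**
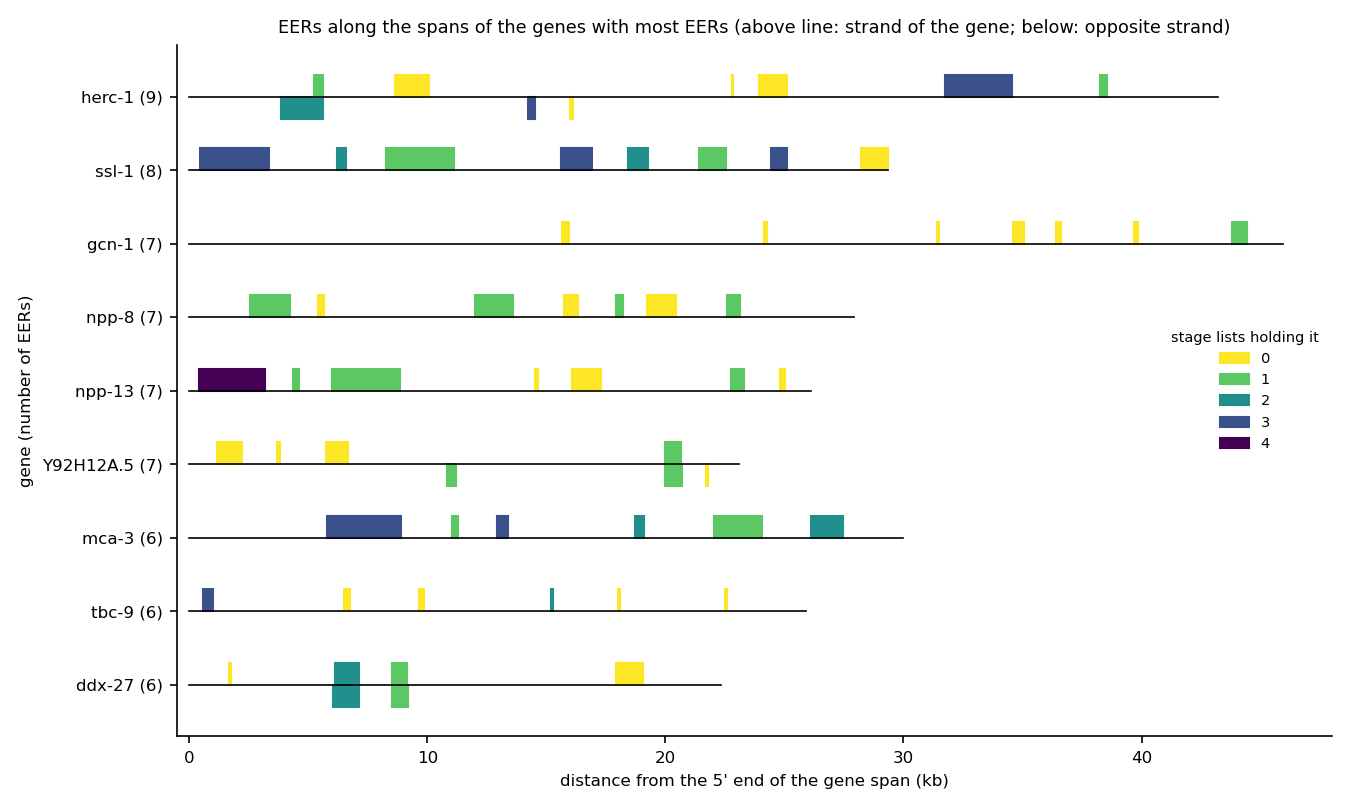
EERs along the gene spans of the genes with 6 or more EERs, with the distance from the 5′ end of the gene in kb on the x axis and 1 gene per row, its number of EERs in brackets. Boxes above the line lie on the strand of the gene and boxes below it on the opposite strand, the colour gives the number of stage lists (0 to 4) that hold the EER, and R155.5 and Y67D8A.1 are not drawn. The 8 EERs of ssl-1 all lie on its strand and run over its whole span, while herc-1 and Y92H12A.5 hold 3 each on the opposite strand.

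The deposited stage lists say at which stages an EER was found. Of the 312 EERs, 134 overlapped a region of the embryo list (42.9%), 120 of the L1-L2 list (38.5%), 91 of the L3-L4 list (29.2%) and 26 of the young adult list (8.33%). For the 1211 other EERs the shares were 35.7%, 27.7%, 21.2% and 9.0%. Counted by gene, 63, 54, 50 and 22 of the 79 had an EER in these 4 lists. No stage list held 120 of the 312 (38.5%, against 49.5% of other EERs), while 81 were found at 1 stage, 60 at 2, 34 at 3 and 17 at all 4 stages. EERs in all 4 lists included EA6_EER85+ in Y92H12BL.1, EA6_EER90+ in Y92H12BL.5, EA6_EER1059+ in hrpu-2, 2 EERs of epc-1 and 1 of egl-4. The lists by molecule held 277 of the 312 for dsRIP (88.8%, against 71.02% of other EERs) and 121 for total RNA (38.8%, against 31.2%). In all 79 genes at least 1 EER was in the dsRIP list, and in 64 at least 1 was in the total RNA list. Host genes also had a higher level in total RNA, with a median of 32.8 FPKM against 28.4 for genes with 2 EERs, 22.4 for genes with 1 and 9.17 for genes with none, and the part of level in these counts was not tested.

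**Figure D2:**
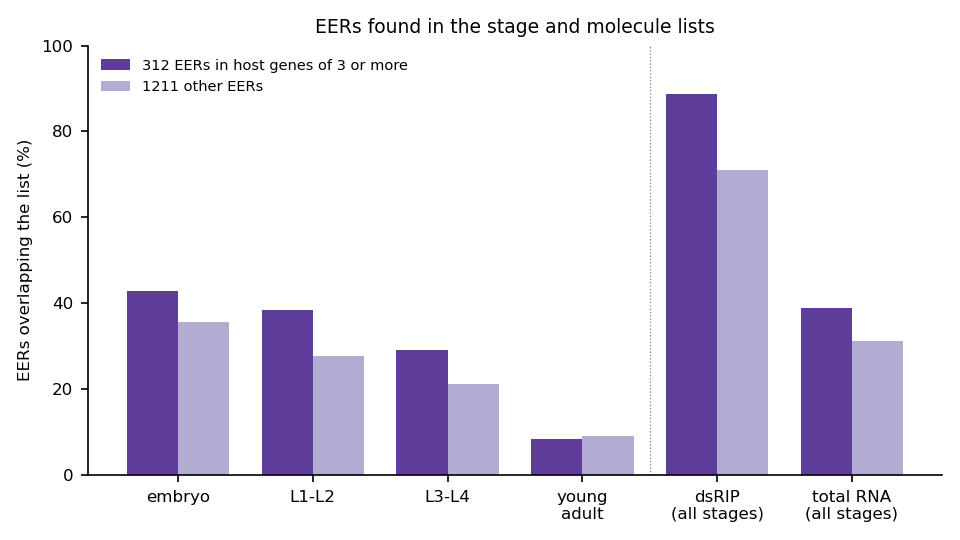
Share of EERs (%, y axis) that overlap each deposited list, for the 312 EERs within host genes (dark bars) and the 1211 other EERs (light bars). Shares fall along the stages to 8.33% and 9.0% in young adults, and 88.8% of the EERs in host genes are in the dsRIP list.

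Within the host genes the EERs stood out in dsRIP while most of the genes did not. The ratio of dsRIP over total RNA is given as log2 of FPKM + 1 over the 4 stages, which understates the change of low features. The median ratio was 1.38 for the 312 EERs, and 0.00 for the 79 genes. With the 4 EERs that had 0 reads in total RNA set to a floor of 3 reads over the 4 samples, the median of the EERs stayed at 1.38. An EER lay above its own gene in 302 of 312 cases, by a median of 1.34 (quartiles 0.82 and 1.90). Among the 189 EERs with at least 30 reads in all, this held for 185, with a median of 1.30. EERs shared by host genes were compared with 1 of these genes only. EA6_EER694- was compared with R155.5, whose ratio rests on 5 reads. In 69 of the 79 genes all EERs lay above the gene. By stage the median EER ratio was 1.57, 1.67, 1.13 and 1.07 in host genes, against 1.51, 1.58, 1.18 and 0.99 for all EERs of the table. Of the 312, limma called 69 higher in dsRIP and 0 lower at an adjusted p under 0.05 (22.1%, where 18.9% of all EERs were higher). At an unadjusted p under 0.05, 220 were higher and 1 lower, where 62.8% of all EERs were higher and 0.586% lower. Since the study chose these regions on these samples, the direction is no independent evidence. Without any 1 of the 4 stage pairs no EER passed, when 154 to 205 were still higher at an unadjusted p under 0.05.

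**Figure D3:**
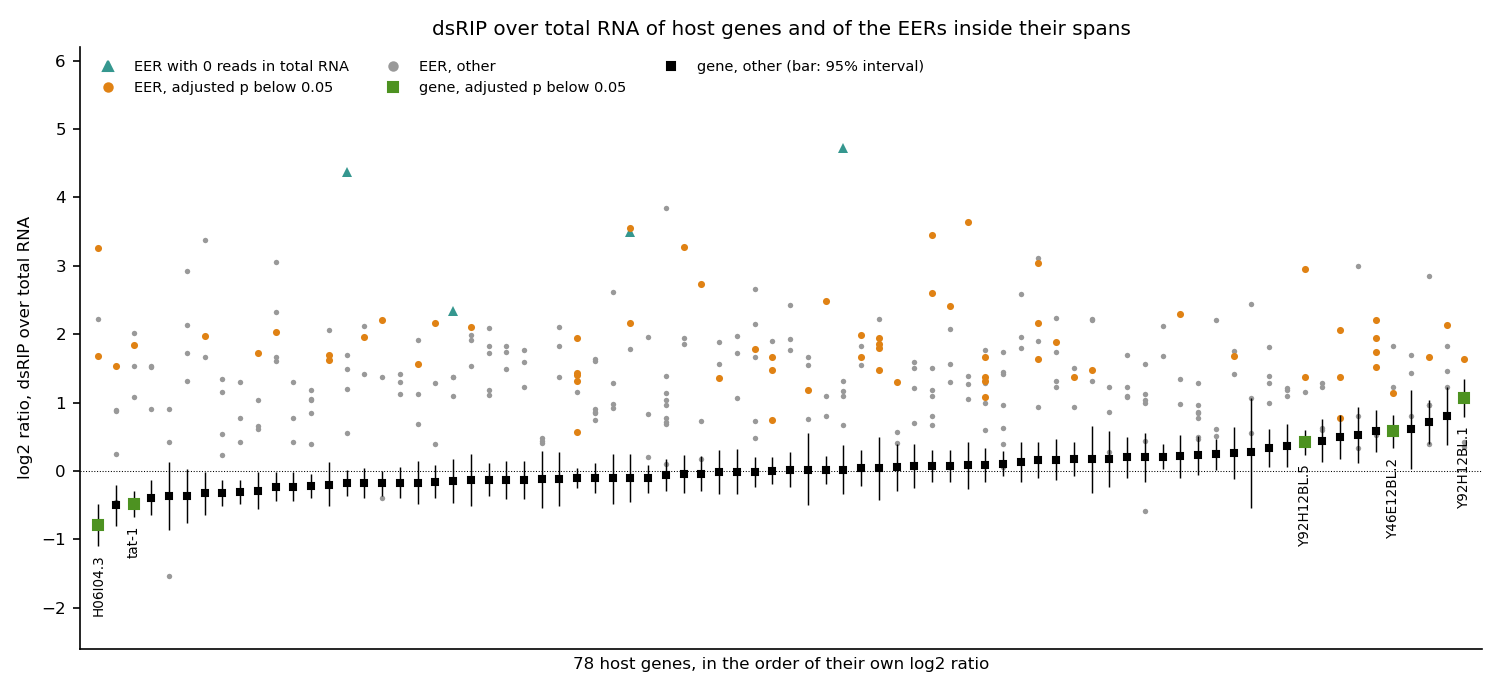
Log2 ratio of dsRIP over total RNA (y axis) for 78 host genes in the order of their own ratio (squares with 95% confidence intervals) and for the EERs inside each span (round points). Triangles are EERs with 0 reads in total RNA, whose fitted ratio is no bound, and R155.5, with 5 reads, is not drawn. Most genes sit near 0. The count of 302 of 312 EERs above their gene includes EA6_EER694-, whose only host gene is R155.5 and which is not drawn.

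EERs on the gene's strand had a median ratio of 1.41 (63 of 269 higher), and those on the opposite strand 1.21 (5 of 25 higher), a difference that was not tested. Set against the reads of the gene, EER reads came to a median of 33.0 per 100 gene reads in dsRIP and 12.2 in total RNA. The share was larger in dsRIP in 79 of 79 genes, among them R155.5, with only 1 gene read in dsRIP and 4 in total RNA. The EERs were found in these libraries, so this direction is no independent evidence. Genes with 1 or 2 EERs were not counted in this way. In dsRIP the EER reads exceeded those of the gene in 10 genes, and in total RNA in 1, R155.5. The extremes among well-covered genes were unc-34, with 157 EER reads per 100 gene reads in dsRIP and 84.1 in total RNA, and Y92H12BL.1, with 136 and 99.8. At the other end glp-4 had 1.97 and 0.442. Per kilobase the EERs lay below their genes at the median. The median of EER FPKM over gene FPKM was 0.352, 0.489, 0.306 and 0.172 in dsRIP along the 4 stages, against 0.107, 0.0991, 0.0918 and 0.0499 in total RNA.

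At least 1 EER was higher in dsRIP in 44 of the 79 genes and at least 2 in 13. In rga-4 all 3 were. Of all EERs tested 18.9% were higher. Genes with 1 or 2 EERs were not counted in this way, so nothing is read from these counts. In all, 15 EERs had at least 30 reads in every sample, and the 5 of these with the highest ratios are given next. EA6_EER85+ (chromosome I, 1357484-1359534 in ce10) lies at the 3′ end of the span of Y92H12BL.1. It had 132 ± 26.9, 114.5 ± 46.7, 114.5 ± 20.7 and 123 ± 55.01 FPKM in dsRIP along the stages. In total RNA the values were 43.6 ± 7.5, 27.4 ± 3.02, 44.5 ± 8.84 and 40.0 ± 8.39 FPKM. Its dsRIP columns lay above its total RNA columns at each of the 4 stages, as in 3.9% of all EERs tested and 2.88% of those in host genes. The log2 ratio of EA6_EER85+ was 1.64 ± 0.12 (SE, adjusted p = 0.0130).

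EA6_EER90+ (chromosome I, 1375160-1376549), which begins inside the span of Y92H12BL.5 and ends beyond it, gave 61.9, 70.9, 68.0 and 76.1 FPKM in dsRIP along the stages, against 29.5, 22.8, 27.2 and 24.9 in total RNA. Its log2 ratio was 1.38 ± 0.12 (adjusted p = 0.0151). EA6_EER908+ (chromosome III, 12714924-12717796), 2873 bp long, is the first of the 8 EERs in ssl-1. Its level was highest in embryos in both molecules, with 63.3, 19.02, 14.5 and 13.1 FPKM in dsRIP and 27.9, 9.19, 5.98 and 5.84 in total RNA. The ratio was 1.08 ± 0.11 (adjusted p = 0.0201). EA6_EER639+ (chromosome II, 15233558-15235458) in Y46E12BL.2 had a ratio of 1.14 ± 0.15 (adjusted p = 0.0317). EA6_EER885- (chromosome III, 12605187-12606768) in epc-1, which encodes an Enhancer of Polycomb homologue, had 0.81 ± 0.20 and did not pass (adjusted p = 0.0937). Its ratio was 1.29 in embryos and 0.17 in young adults.

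Among EERs chosen for the text after their values were seen, EA6_EER1032- in ptpn-22, a tyrosine phosphatase gene, and EA6_EER1042+ in egl-4, the gene of a cGMP-dependent protein kinase, had 2.17 ± 0.21 each (adjusted p = 0.0188 and 0.0195). In dsRIP EA6_EER1042+ had 15.3, 34.9, 22.1 and 11.7 FPKM along the stages, against 3.98, 5.56, 5.06 and 1.11 in total RNA. EA6_EER690+, shared by pqn-41 and R155.5, was the exception among EERs with many reads, with 365 reads in dsRIP and 744 in total RNA. It had a ratio of -0.45 ± 0.14 (adjusted p = 0.151) and was the only EER among the 189 with at least 30 reads below 0. The 2 largest fitted ratios rested on few reads. EA6_EER60- in haf-6, 70 bp long, had 11 reads in dsRIP and 0 in total RNA, and EA6_EER61+ in smg-2 had 12 and 0.

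The comparison of dsRIP with total RNA at the genes themselves asks whether the exons of a gene with several edited structures are recovered by the dsRNA antibody. Genes and EERs can share reads, so the ratio of a gene is not independent of its EERs. Their part in the gene ratios was not tested. Of the 79 genes, all of which passed the filter on low values, limma called 3 higher in dsRIP and 2 lower. In all 19091 genes tested 0.754% were higher and 2.29% lower (3.05% either way). At an unadjusted p under 0.05, 14 of the 79 were higher and 12 lower, where 5.07% of all genes were higher and 14.8% lower. Ratios ran from -0.79 to 1.06, with quartiles of -0.16 and 0.19, and 69 of the 79 lay within 0.5 of 0. The median of 0.00 stood beside -0.02 for genes with 2 EERs, -0.06 for genes with 1 and -0.12 for all genes. Setting the medians of all genes equal moved that of all genes to 0.04 and that of the host genes to 0.16. By stage the median of the host genes was 0.13, 0.00, -0.13 and -0.01, against 0.00, -0.13, -0.10 and 0.00 for all genes. A ratio above 0 at all 4 stages was seen in 16 genes, and below 0 at all 4 in 18. The shares of all genes were not computed for these counts, so nothing is read from them.

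The highest ratio was that of Y92H12BL.1 (chromosome I, 1348505-1359597), a gene with 3 EERs over 40.5% of its span. It had 141 ± 8.64, 117 ± 49.3, 106 ± 19.1 and 115 ± 45.1 FPKM in dsRIP along the stages. In total RNA it had 60.3 ± 4.88, 46.3 ± 8.99, 59.9 ± 13.3 and 60.7 ± 15.8 FPKM. The columns of the 2 molecules were apart at 3 of the 4 stages and overlapped in young adults. Y92H12BL.1 rose by 1.06 ± 0.11 on the log2 scale (adjusted p = 0.0206). Its EER ratios were 0.35, 0.42 and 1.64, so 1 of its 3 EERs lay above the gene. That EER was EA6_EER85+, found in these libraries, and the part of its reads in the ratio of the gene was not tested.

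Y92H12BL.5 begins 5.71 kb after Y92H12BL.1 on the same strand and was among the most abundant host genes. It had 131 ± 14.1, 139 ± 54.5, 126 ± 44.6 and 136 ± 50.3 FPKM in dsRIP along the stages, against 97.1 ± 20.6, 106 ± 16.95, 103 ± 36.2 and 90.4 ± 23.98 in total RNA. The columns overlapped at all 4 stages. The ratio of Y92H12BL.5 was 0.42 ± 0.07 (adjusted p = 0.0487). This gene hosts EA6_EER90+, and the part of the reads of that EER in the ratio was not tested.

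Y46E12BL.2 (chromosome II, 15233077-15244883) had 41.8 ± 6.07, 38.7 ± 9.69, 36.3 ± 6.46 and 34.5 ± 2.24 FPKM in dsRIP, against 23.9 ± 3.87, 24.6 ± 2.96, 26.0 ± 3.27 and 25.5 ± 0.225 in total RNA. The 3 dsRIP columns lay above the 3 total RNA columns at each of the 4 stages, as they did in 0.0524% of all genes tested. Y46E12BL.2 rose by 0.58 ± 0.10 (adjusted p = 0.0477). This gene hosts EA6_EER639+, and the part of the reads of that EER in the ratio was not tested. Y46E12BL.2 begins 6.42 kb after spsb-1, the gene of an SPRY and SOCS box protein, which had a ratio of -0.23 ± 0.08 (adjusted p = 0.190).

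The 2 lower genes also held EERs that were higher. H06I04.3 (chromosome III, 3070513-3085263) had 18.7 ± 2.01, 37.2 ± 3.64, 45.2 ± 12.1 and 53.9 ± 5.14 FPKM in dsRIP, against 41.1 ± 10.02, 70.8 ± 13.3, 71.8 ± 17.6 and 77.2 ± 35.0 in total RNA. The dsRIP columns were all lower in embryos and L1-L2 larvae and overlapped with total RNA at the later stages. H06I04.3 fell by 0.79 ± 0.12 (adjusted p = 0.0389), while 2 of its 3 EERs were higher and their ratios ran from 1.68 to 3.26.

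The flippase gene tat-1, whose product keeps phosphatidylserine on the inner side of membranes, lies at chromosome III, 12398823-12421422. It had 27.1 ± 6.10, 28.6 ± 1.81, 24.9 ± 2.72 and 26.0 ± 2.74 FPKM in dsRIP, against 38.6 ± 3.44, 39.4 ± 7.06, 35.4 ± 6.24 and 36.5 ± 8.21 in total RNA. Columns were apart at 3 of the 4 stages and the level hardly moved along them. The ratio of tat-1 was -0.48 ± 0.07 (adjusted p = 0.0407), with EERs from -0.45 to 2.01, 1 of 5 higher.

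Counted by stage, the 3 dsRIP columns lay above the 3 total RNA columns in 13, 7, 5 and 6 of the 79 genes along the stages, where 3.42%, 2.59%, 1.76% and 2.23% of all genes did. They lay below them in 8, 8, 10 and 7 genes, where 8.29%, 11.3%, 8.9% and 4.31% of all genes did.

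None of the 5 calls held without any 1 of the 4 stage pairs. The ratio of Y92H12BL.1 then ran from 0.98 to 1.15 (adjusted p = 0.0955 to 0.131), that of Y92H12BL.5 from 0.36 to 0.46 (0.130 to 0.182) and that of Y46E12BL.2 from 0.51 to 0.63 (0.124 to 0.186). For H06I04.3 it ran from -0.89 to -0.69 (0.103 to 0.182) and for tat-1 from -0.49 to -0.47 (0.118 to 0.156).

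**Figure D4:**
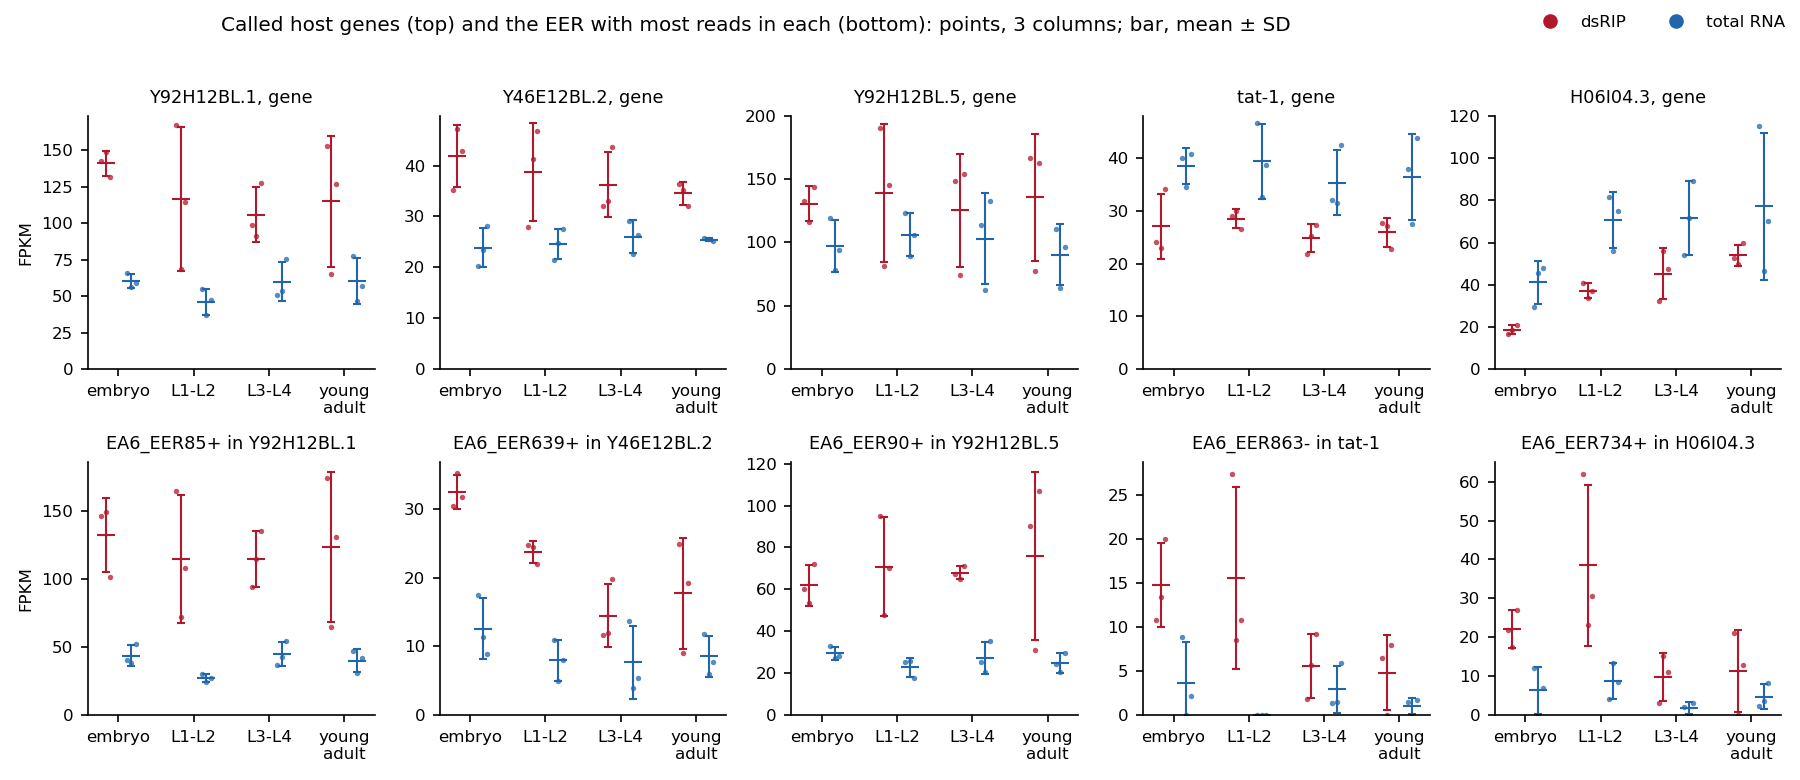
FPKM (y axes, from 0) by stage of the 5 host genes that passed the test (top row) and of the EER with most reads in each (bottom row), dsRIP in red and total RNA in blue. Points are the 3 numbered columns and bars the mean ± SD. Y92H12BL.1, Y46E12BL.2 and Y92H12BL.5 are higher in dsRIP and tat-1 and H06I04.3 lower, while the mean of each EER shown is higher in dsRIP at every stage.

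Several genes lay near the threshold and are named after their values were seen. The centriole gene sas-1 had a ratio of 0.71 ± 0.13 (adjusted p = 0.0518), with 98.4, 14.7, 19.2 and 39.4 FPKM in dsRIP along the stages, against 47.3, 10.8, 11.1 and 24.6 in total RNA. Y34D9A.8 had 0.80 ± 0.16 (adjusted p = 0.0676) on 240 reads in all. Y111B2A.12, which begins 0.820 kb after epc-1, had 0.58 ± 0.12 (adjusted p = 0.0681), and 4 of its 5 EERs were higher. On the other side pqn-41, a gene of a glutamine-rich protein with a part in the death of the linker cell, had -0.50 ± 0.12 (adjusted p = 0.0891). Its dsRIP columns were all lower at each of the 4 stages, as in 0.513% of all genes. It had 46.8, 29.6, 17.8 and 11.2 FPKM in dsRIP, against 58.4, 38.1, 25.7 and 20.9 in total RNA.

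By role, from textbook knowledge of their symbols, 56 of the host genes fall into 6 groups. At an unadjusted p under 0.05 the counts higher and lower were 0 and 4 in RNA processing, 1 and 1 in chromatin, 1 and 2 in traffic, 1 and 0 in the nuclear pore and division group, 1 and 1 in signalling and 1 and 0 in metabolism, beside 5.07% higher and 14.8% lower of all genes. Among the 23 host genes without a role given here, 9 were higher and 4 lower at the same limit. RNA processing, translation and RNAi held 12 genes with 52 EERs. None of the 12 passed the test, and 1 had a ratio above 0 at 2 decimals (2 without rounding), where 7259 of all 19091 genes did. With equal medians of all genes 6 of the 12 lay above 0, where 10237 of the 19091 did. The median of the group was -0.16 as deposited, 0.00 with equal medians of all genes and -0.10 with quantile normalisation. Of the 52 EERs 9 were higher, where 18.9% of all EERs and 22.1% of those in host genes were. These shares also stand beside the EER counts of the other role groups below, and differences between groups were not tested. The group's most abundant gene was glp-4, which encodes a valyl-tRNA synthetase (-0.18 ± 0.07, adjusted p = 0.213). Next was hrpu-2, named for the nuclear ribonucleoprotein U, with 205 ± 34.3, 103.9 ± 19.3, 90.98 ± 20.04 and 87.96 ± 16.98 FPKM in dsRIP, against 200.1 ± 14.8, 91.6 ± 8.5, 95.7 ± 27.1 and 96.0 ± 33.1 in total RNA. Its columns overlapped at every stage and its ratio was 0.00 ± 0.07. Yet 3 of its 4 EERs were higher, and EA6_EER1059+ had 60.0, 79.7, 29.7 and 13.2 FPKM in dsRIP, against 16.01, 18.8, 10.4 and 4.49 in total RNA. The RNA methyltransferase gene nsun-2 had -0.33 ± 0.07 (adjusted p = 0.0811) and the helicase gene emb-4, which acts on intronic RNA, -0.22 ± 0.07 (adjusted p = 0.156). The gene with 7 EERs, gcn-1, had 0.16 ± 0.10 (adjusted p = 0.404), with 3 of its EERs higher. In rsd-2, needed for the spread of RNAi, 1 of 4 EERs was higher.

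Chromatin and transcription held 11 genes with 41 EERs, 10 of them higher, and no gene passed (median -0.04 as deposited, 0.12 with equal medians). The remodeller gene ssl-1 had 55.7 ± 17.1, 26.1 ± 3.14, 20.3 ± 4.59 and 27.3 ± 6.31 FPKM in dsRIP, against 45.5 ± 6.99, 24.9 ± 4.64, 21.8 ± 3.19 and 25.6 ± 11.55 in total RNA. Its columns overlapped throughout (ratio 0.09 ± 0.10), all 8 EERs lay above it, and 4 were higher. For epc-1 the ratio was 0.02 ± 0.08, for crh-1, the CREB gene, 0.04 ± 0.10, and for cdk-7, a kinase of RNA polymerase II, -0.20 ± 0.13. Of their EERs 1 of 3, 2 of 4 and 2 of 3 were higher.

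Membrane traffic and transport held 13 genes with 54 EERs, of which 17 were higher, and tat-1 was its only gene to pass (median 0.02). The calcium pump gene mca-3 had the highest mean level of all host genes. It had 113 ± 4.21, 179.5 ± 6.99, 135 ± 5.74 and 93.8 ± 7.54 FPKM in dsRIP, against 122 ± 2.11, 202 ± 18.4, 146 ± 10.6 and 96.4 ± 14.7 in total RNA. Only in embryos were its columns apart, and the ratio was -0.11 ± 0.06 (adjusted p = 0.329). Of its 6 EERs 5 were higher, from 0.57 to 1.94. EA6_EER1109- (chromosome IV, 3124253-3127339) had the most reads of any EER in a host gene, 1098 in dsRIP and 1076 in total RNA, and the smallest of these ratios (0.57 ± 0.08, adjusted p = 0.0324). The zinc transporter gene zipt-15 had 0.34 ± 0.11, the autophagy gene atg-9 -0.33 ± 0.12 and scm-1, a secretory carrier gene, 0.17 ± 0.10 (adjusted p = 0.157, 0.192 and 0.342). In sql-1, a golgin gene, 4 of 5 EERs were higher at a gene ratio of 0.04.

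Nuclear pore and cell division held 6 genes with 28 EERs, 3 of them higher, and none of the genes passed (median 0.14). The nucleoporin gene npp-13 had 139 ± 24.3, 43.5 ± 10.8, 38.2 ± 10.2 and 57.9 ± 5.07 FPKM in dsRIP, against 95.1 ± 17.2, 36.0 ± 6.19, 39.1 ± 7.96 and 52.5 ± 7.5 in total RNA (ratio 0.23 ± 0.11, adjusted p = 0.293). For npp-8 the ratio was 0.10 ± 0.07 (adjusted p = 0.446). Each has 7 EERs on its own strand, none of which passed, with medians of 0.85 and 0.97. The kinetochore gene zwl-1 had 0.18 ± 0.16 and pola-1, which encodes the catalytic subunit of DNA polymerase alpha, -0.18 ± 0.08.

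Signalling, actin and adhesion held 10 genes with 35 EERs, 9 of them higher, and no gene passed (median 0.03). The kinase gene egl-4 had -0.16 ± 0.10, and rhgf-3 -0.31 ± 0.07 (adjusted p = 0.0814). For ptpn-22 the ratio was -0.11 ± 0.14, although 3 of its 4 EERs were higher (median 2.83), and for arx-1, the Arp3 gene, 0.13 ± 0.11. Metabolism and glycosylation held 4 genes, none of which passed: pcyt-2.1 with 0.24 ± 0.09, hxk-3, a hexokinase gene, with -0.17 ± 0.12, gly-5, a gene of O-glycosylation, with -0.02 ± 0.13, and nprt-1 of NAD synthesis with 0.26 ± 0.15. Of their 13 EERs 3 were higher. The 23 genes without a role given here had a median of 0.16 and held 4 of the 5 calls and 19 higher EERs of 97, with shared EERs counted in each gene. Among them herc-1 had 32.6 ± 6.41, 21.98 ± 1.96, 24.2 ± 1.77 and 26.7 ± 6.78 FPKM in dsRIP, against 35.0 ± 7.94, 19.8 ± 1.96, 26.3 ± 6.28 and 30.2 ± 6.80 in total RNA. Its columns overlapped at every stage (ratio -0.06 ± 0.09), and 0 of its 9 EERs passed. R155.5 passed the filter on 5 reads, so no ratio is given for it.

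The editing and dsRNA machinery, a list of which 21 genes were found in the table, shared no gene with the host genes. By limma 0 of them were higher in dsRIP and 0 lower at an adjusted p under 0.05, where 0 were higher and 10 lower at an unadjusted p under 0.05 (5.07% and 14.8% of all genes), with a median of -0.27 as deposited and -0.12 with equal medians of all genes. The editing enzyme gene adr-2 had a ratio of -0.64 ± 0.14 (adjusted p = 0.0808) and adr-1 -0.09 ± 0.09 (adjusted p = 0.631).

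The course along the stages is described with no test. Between the highest and the lowest stage, on the log2(FPKM + 1) scale, 11 of 79 were at least 4-fold apart in dsRIP and 11 in total RNA. In all genes tested this held for 50.9% in dsRIP and 49.3% in total RNA, where the median gene had 122 reads over the 8 samples, against 1216 for the host genes. The part of read depth was not tested. For genes with 2 EERs the share in total RNA was 20.7%, and for genes with 1 it was 26.6%. Embryos were the highest stage for 61 host genes in dsRIP (77.2%, against 36.3% of all genes) and for 54 in total RNA (68.4%, against 35.4%). In the same order the shares were 62.1% and 54.5% for genes with 2 EERs, and 53.4% and 50.5% for genes with 1. The members were chosen by EERs found in these libraries, most often in the embryo list, and the part of this choice was not tested. In a sample of whole worms, fewer cells of a type and less RNA per cell cannot be told apart, and the germline, intestinal, muscle and neuronal markers above moved with stage too. Their part was not tested.

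Y48G10A.2 had the largest stage difference, at 66.2 ± 12.7, 10.9 ± 0.305, 20.7 ± 7.27 and 34.9 ± 3.63 FPKM in dsRIP, against 50.5 ± 14.8, 4.78 ± 3.18, 16.4 ± 3.34 and 27.6 ± 7.94 in total RNA. It was lowest in L1-L2 larvae in both molecules, and embryos were 5.64-fold higher in dsRIP and 8.92-fold higher in total RNA on the FPKM + 1 scale. The E-cadherin gene hmr-1, which joins epithelial cells, declined along the stages, with 74.4, 22.4, 13.0 and 11.9 FPKM in dsRIP and 77.4, 23.9, 12.9 and 10.2 in total RNA, 5.85-fold and 7.0-fold from highest to lowest on the FPKM + 1 scale. The Enabled gene unc-34, which acts in actin assembly, was highest in embryos as well, with 62.3, 35.1, 14.4 and 17.3 FPKM in dsRIP and 67.9, 35.0, 15.9 and 12.2 in total RNA.

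The replication gene pola-1 was high in embryos, lowest in L1-L2 larvae and intermediate in young adults, at 57.0, 9.73, 14.5 and 29.7 FPKM in dsRIP and 65.7, 11.1, 16.8 and 32.4 in total RNA. For atg-9 the values were 96.6, 21.7, 15.8 and 17.9 FPKM in dsRIP and 98.6, 27.7, 20.0 and 28.5 in total RNA, so that embryo columns lay far above all others. The tRNA synthetase gene glp-4 ran the other way, with 37.5 ± 5.71, 113 ± 12.9, 159.8 ± 31.6 and 153 ± 7.95 FPKM in dsRIP and 40.0 ± 7.46, 136 ± 15.1, 197 ± 41.4 and 161 ± 27.9 in total RNA. Its columns of L3-L4 larvae and young adults overlapped, and those of embryos lay below all others. In gcn-1 embryos were lowest as well, at 24.5 ± 4.28 FPKM in dsRIP and 17.5 ± 3.27 in total RNA. Y92H12BR.3 was highest in embryos, at 241 ± 33.3 FPKM in dsRIP and 226 ± 35.0 in total RNA.

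**Figure D5:**
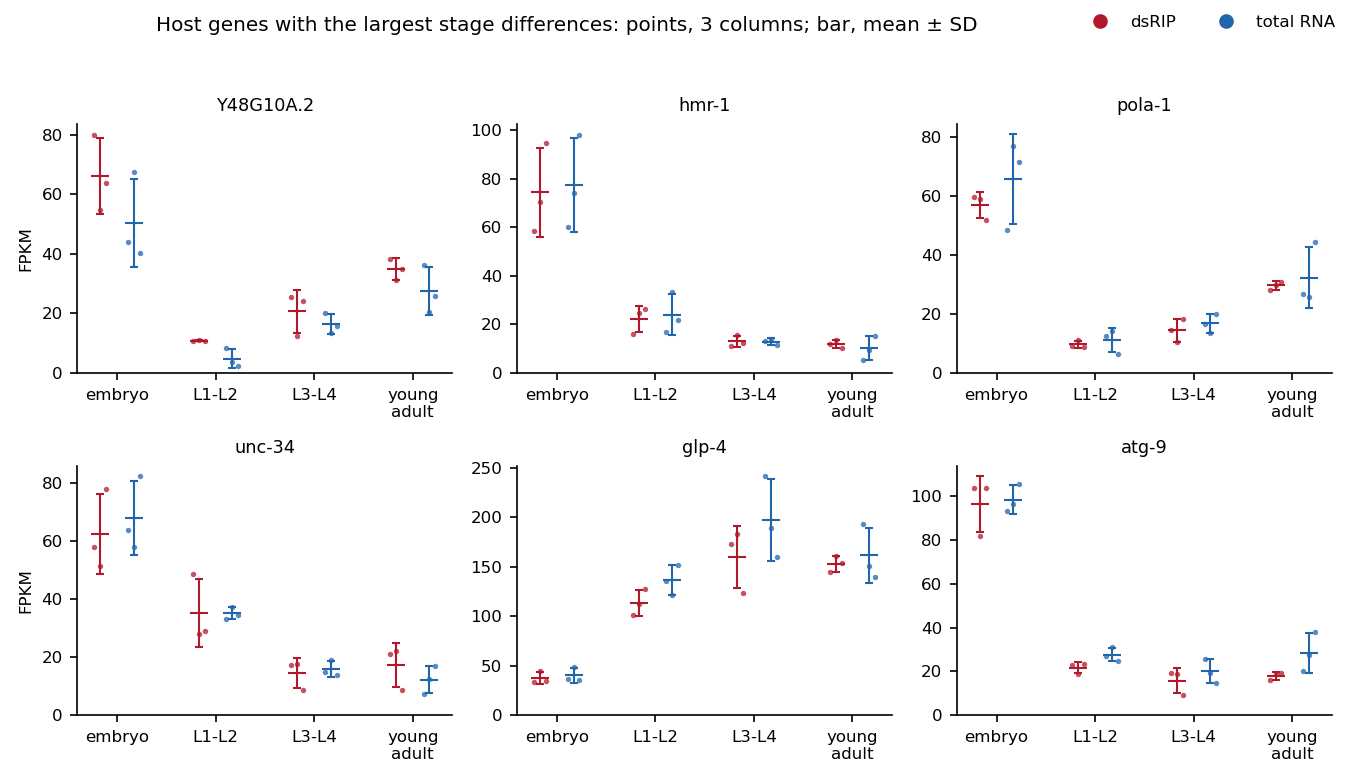
FPKM (y axes, from 0) along the 4 stages for the 6 host genes with the largest stage differences, dsRIP in red and total RNA in blue. Points are the 3 numbered columns and bars the mean ± SD. Y48G10A.2, hmr-1, pola-1, unc-34 and atg-9 are highest in embryos and glp-4 is lowest there.

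At the border of the rule, the genes with 3 EERs and most covered bases were unc-34 (5321 bp), trip-4 (4527 bp), a transcriptional coactivator gene, and Y92H12BL.1 (4497 bp). Just outside, with 2 EERs, were tric-1B.1 (5159 bp), pqn-80 (4036 bp) and pqn-83 (3618 bp). Their log2 ratios were 0.06, -0.40 and 1.06 inside and 0.18, -0.19 and -0.16 outside.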

How the data were processed

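Total RNA and dsRIP RNA were sequenced from 4 stages, and 8 samples were used. The FPKM values were deposited by the authors as 1 table of genes and EERs with 3 numbered columns per sample. Reads were aligned with Novoalign and handled with SAMtools 0.1.19 and bedtools 2.19.0 on ce10, per the submitters' processing notes. Their roles, and the gene annotation, are not given in the sources used here. EER lists were deposited with a score per region, which the authors' files do not define and which was used only to rank regions. 1 title reads L4-L4, and that sample was placed at L3-L4 by its stage label. A library's smallest FPKM steps gave whole reads for 100% of EER values within 0.05, so depth is in reads. No column lacked a sample (0 columns).

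Columns were averaged to 8 samples. limma 3.58.1 (R 4.3.3) was fitted to log2(FPKM + 1) over all features with FPKM of at least 1 in at least 2 samples. Stage was a block, eBayes used a trend, and p-values were adjusted by Benjamini-Hochberg over 20628 features at a threshold of 0.05. The fit was tested on simulated data with 200 changed features. Stage differences have no test, and a 4-fold limit on the log2(FPKM + 1) scale describes them. Gene names and strand came from an annotation of another build by sequence name, never coordinates. Python 3.11.15 with pandas 2.3.3 and matplotlib 3.10.9 did the rest.

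The members, lists and tests were chosen with earlier results of these data known. Named genes are the 8 with most EERs, the 6 with the highest mean FPKM in total RNA, all that passed the test, the 6 with the largest stage difference, up to 4 per role group by level, and those just inside and outside the rule. Further genes were named after their values were seen, and the text says so or they describe an extreme. FPKM divides by counted length, so EERs and genes that share reads are not independent, and genes that overlap on opposite strands may share reads. Reads without molecular identifiers are not independent molecules, so read counts cover counting error only.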

Additional observations from a re-analysis of the deposited data

How the results depend on the processing

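Of 139 alternative values of the main results 92 kept their direction and side of the threshold or moved little, and 47 moved. Named one at a time, alternatives left the median ratio of the host genes between -0.05 and 0.05, except for equal medians of all genes, which gave 0.16. The count of host genes higher and lower was 1 and 2 with a pseudocount of 0.5, 1 and 0 with no filter, 7 and 0 with equal medians, 4 and 0 after quantile normalisation, and 0 and 0 with no replicate block (stages left unpaired) or with no trend. In the last 2 settings 1 and 11 were higher and 0 and 5 lower at an unadjusted p under 0.05. Without any 1 stage pair the counts ran from 0 to 0 in both directions, with 8 to 14 higher and 6 to 13 lower at an unadjusted p under 0.05. They were 6 and 4 over the 24 numbered columns and 9 and 8 with voom on recovered reads, an alternative chosen after seeing the data. With EERs on the strand of the gene only, 66 genes remained, 3 higher and 1 lower. For EERs the number higher was 1 unpaired, 19 with no trend, 126 over 24 columns and 201 with 1 lower in voom. It ran from 0 to 0 without a stage pair. A pseudocount of 5 lowered the median of the EERs and that of EER minus gene to 0.82 each. Genes at least 4-fold apart between stages numbered 6 with a pseudocount of 5 and 7 after quantile normalisation in total RNA, and 7 with a pseudocount of 5 in dsRIP. Of the genes, 47 kept at least 3 EERs among the upper 50% by score. Where 50% or more of both regions had to overlap, 72, 59, 40 and 7 EERs were in the stage lists. The cause of these differences was not tested. Over 15 alternatives each the 5 called genes reversed in 0, kept their call in 34 values and lost it in 41. The planned quasi-likelihood count test on recovered reads was not run, and voom stands in its place.

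Same-numbered columns of dsRIP and total RNA deviated together by r = 0.123 to 0.313 at the first 3 stages and -0.022, 0.297 and 0.007 in young adults, where columns of other numbers gave -0.194 to 0.184 over all stages. Not every pair was over 0.1, so the numbers were not taken to pair the samples. At the first 3 stages each column correlated best with its own number, a hint from the data and not from the design. A replicate block by column number gave 9 higher and 6 lower genes and 141 higher and 1 lower EERs over the 24 columns.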

Other observations

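Among EERs with at least 30 reads in the molecule, the EER and its host gene had the same highest stage for 91 of 138 in dsRIP (65.9%) and 50 of 70 in total RNA (71.4%). Embryos were the highest stage for most host genes in both molecules, as given above. The match that 2 unlinked sets would give was not computed, genes and EERs can share reads, and nothing is read from these counts. Of the 312 EERs 158 were in the dsRIP list only, 2 in the total RNA list only, 119 in both and 33 in neither.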
